A study of Mus musculus with 20 samples.

Results

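The miR-29 family on these arrays comprised 4 mature microRNAs (miRNAs): miR-29a-3p, miR-29b-3p, miR-29c-3p and miR-29a-5p, chosen by exact name (mmu-miR-29a-3p, mmu-miR-29b-3p, mmu-miR-29c-3p and mmu-miR-29a-5p in the files) among the 1881 mature mouse miRNAs that the array measures. The first 3 were well above background on all 20 arrays, and miR-29a-5p on 0 of 20. The tissue was lesion-bearing ascending aorta of male mice that all carried the double knockout labelled Apobtm2Sgy/Ldltm1Her, so no group had intact alleles. The arrays fell into 7 groups: chow at week 0 (2 arrays), and chow or high fat diet at week 6, week 18 and week 30 (3 arrays in each of 6 groups). The labels give the same week numbers both as age and as time on the diet, and do not say whether animals were pooled. Arrays of a group are numbered here by their replicate number. Nothing in the labels says that they came from separate animals, so the p-values reflect only the spread among these arrays, which may be partly technical.

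The miR-29 family represses messenger RNAs that encode extracellular matrix, above all fibrillar collagens, elastin and fibrillin. A mature miRNA finds its targets mainly through its seed, the bases near its 5′ end, and miRNAs with one seed share most predicted targets. In the aortic wall, matrix proteins give the vessel its strength and form the fibrous cap over a lesion, which is why this family is studied in aneurysm and atherosclerosis. The 3p arm is the one that accumulates from each miR-29 hairpin, and the 5p arm is the minor product.

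The mature sequences, from RefSeq (GRCm38.p6), show why the 3p arms form a family and where they differ. Capitals mark the seed, bases 2 to 8.
miR-29a-3p: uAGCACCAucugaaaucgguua
miR-29b-3p: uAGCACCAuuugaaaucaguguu
miR-29c-3p: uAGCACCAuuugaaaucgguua
miR-29a-5p: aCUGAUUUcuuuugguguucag
The seed AGCACCA was shared by the 3 3p arms and by 0 other of the 1679 mature sequences in the RefSeq table, and miR-29a-5p has another seed. Counted from 1 at the 5′ end, miR-29c-3p differs from miR-29a-3p by the single substitution C10U. miR-29b-3p differs from miR-29a-3p by C10U, G18A, U21G and A22U over the 22 shared positions, and is 1 base longer.

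The members come from a pair of clusters. Mir29a and Mir29b-1 lie on chromosome 6 and were 275 bases apart in the RefSeq table, inside no annotated host gene. Mir29b-2 and Mir29c lie on chromosome 1, 426 bases apart, inside the long non-coding RNA gene A330023F24Rik. The 2 copies of Mir29b give the same mature miR-29b-3p, so its signal cannot be assigned to a cluster. The files (build mm9) place miR-29a-3p at chr6:31012716-31012734, miR-29a-5p at chr6:31012676-31012696, miR-29c-3p at chr1:196863795-196863815, and miR-29b-3p at both chr6:31013071-31013091 and chr1:196863287-196863307. The chromosome 6 genes lie on the minus strand and those of chromosome 1 on the plus strand. On chromosome 6 the files list the 5p arm below the 3p arm, the reverse of the order in a minus-strand hairpin, so these positions place the hairpin rather than each arm. The Mir29a hairpin of 88 bases carries miR-29a-5p at bases 16 to 37 and miR-29a-3p at bases 54 to 75, shown here in capitals.
Mir29a: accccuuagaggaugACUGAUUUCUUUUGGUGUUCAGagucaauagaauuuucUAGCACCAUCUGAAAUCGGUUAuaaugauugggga

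Because members differ by so few bases, the probes decide what each value can tell apart. Each 3p arm had 2 probes, each spotted 15 times per array and each the reverse complement of a stretch of the miRNA. Those of miR-29a-3p and miR-29b-3p pair from base 3 or 4 to the 3′ end. Those of miR-29c-3p pair with bases 1 to 22 and 2 to 22. The longer probe of each arm is shown, with the base opposite position 10 in capitals.
miR-29a-3p probe: taaccgatttcaGatggtgc
miR-29b-3p probe: aacactgatttcaAatggtgc
miR-29c-3p probe: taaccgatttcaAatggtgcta
The base opposite position 10 is the one base in which the miR-29a-3p and miR-29c-3p probes differ over the stretch that both cover. Over the 20 arrays, the 2 probes of one member moved together, with Pearson r = 0.975 for miR-29a-3p, 0.994 for miR-29b-3p and 0.999 for miR-29c-3p. Probes of miR-29a-3p and miR-29c-3p correlated at 0.458 to 0.514, and those of miR-29a-3p and miR-29b-3p at 0.256 to 0.268. Probes of miR-29b-3p and miR-29c-3p correlated at 0.845 to 0.859. These correlations share each array's RNA, labelling and scaling and are given as a description. How far one member's RNA binds another member's probe was not tested.

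Between 316 and 742 miRNAs were detected per array. Values are given as log2 of the scaled signal: the spot intensity divided by its array's 75th percentile, taken over the 192 miRNAs that every array detected, and put on a common scale. Different miRNAs have different probes, so the level of one member cannot be set against that of another, and only changes between arrays are compared. Of the smooth muscle markers, miR-143-3p ranged from 8.72 to 10.997 and miR-145a-5p from 8.14 to 9.75, both detected on all 20 arrays. miR-143-5p was detected on 18 and miR-145a-3p on 0. Among the striated muscle markers, miR-133a-3p and miR-1a-3p were detected on all 20, miR-206-3p on 18, miR-208a-3p on 3, miR-499-5p on 2 and miR-208b-3p on 0. Among the brown fat markers, miR-193b-3p, miR-365-3p and miR-378a-3p were detected on all 20 and miR-455-3p on 19. With no other tissue to compare, these values cannot check the aortic label. In bulk tissue, fewer cells of a type and less RNA per cell cannot be told apart. The arrays came from 3 slides, each scanned in a session of its own: slide 1 held weeks 0 and 6, slide 2 the chow groups of weeks 18 and 30 and arrays 1 and 2 of week 18 high fat, and slide 3 the remaining high fat arrays. For 8 arrays the slide position in the labels differs from that in the file, and by the label's position week 18 chow array 1 and week 18 high fat array 1 would switch diets; groups here follow the titles. Week 18 high fat array 3 had negative controls with an SD of 22.3, against 2.1 to 2.53 on the other arrays. On the first principal component of all tested miRNAs other than the members (46.4% of the variance), week 18 chow array 1, week 18 high fat array 1 and week 30 high fat array 1 stood apart at 30.8, 27.6 and 31.1, with the next array at 16.4.

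miR-29a-3p, the sole product of the Mir29a hairpin detected here, had the steadiest signal of the family. At week 0 it measured 11.96 and 12.30. On chow it measured 11.63, 11.83 and 11.42 at week 6, 11.58, 11.64 and 11.96 at week 18, and 11.80, 11.52 and 11.57 at week 30. On high fat it measured 11.15, 12.37 and 12.11 at week 6, 11.64, 11.96 and 11.33 at week 18, and 11.25, 11.32 and 11.12 at week 30. The week 0 pair lay above every chow array of weeks 6 and 30, and the week 30 high fat group had the lowest mean. Its SD over all 20 arrays was 0.36, which ranked 188 of 192 when the miRNAs detected on all arrays were ordered from the most to the least variable. Group means ran from 11.23 ± 0.10 (SD, n = 3) at week 30 on high fat to 12.13 ± 0.24 (SD, n = 2) at week 0.

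miR-29b-3p, which both clusters produce, varied more. At week 0 it measured 9.63 and 8.11. On chow it measured 10.38, 10.61 and 9.95 at week 6, 8.62, 10.51 and 10.74 at week 18, and 10.55, 10.38 and 10.20 at week 30. On high fat it measured 9.65, 10.96 and 10.70 at week 6, 7.77, 10.71 and 9.97 at week 18, and 7.45, 9.89 and 9.57 at week 30. The low values were single arrays within groups: array 2 at week 0, and array 1 of week 18 chow, week 18 high fat and week 30 high fat. In the groups that held these arrays the SD was 1.07 to 1.53, against 0.17 to 0.70 in the others. Its SD over the 20 arrays was 1.04, rank 49 of 192.

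miR-29c-3p, from the chromosome 1 cluster, was low on most of the same arrays. At week 0 it measured 10.39 and 9.88. On chow it measured 9.96, 10.21 and 9.60 at week 6, 8.81, 10.16 and 10.63 at week 18, and 10.24, 10.11 and 10.32 at week 30. On high fat it measured 9.73, 10.76 and 10.18 at week 6, 8.88, 10.67 and 10.07 at week 18, and 7.83, 10.08 and 9.77 at week 30. The 3 lowest arrays were again array 1 of week 18 chow, week 18 high fat and week 30 high fat, and the week 0 pair overlapped every later group. Its SD over the 20 arrays was 0.70, rank 126 of 192.

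**Figure D1:**
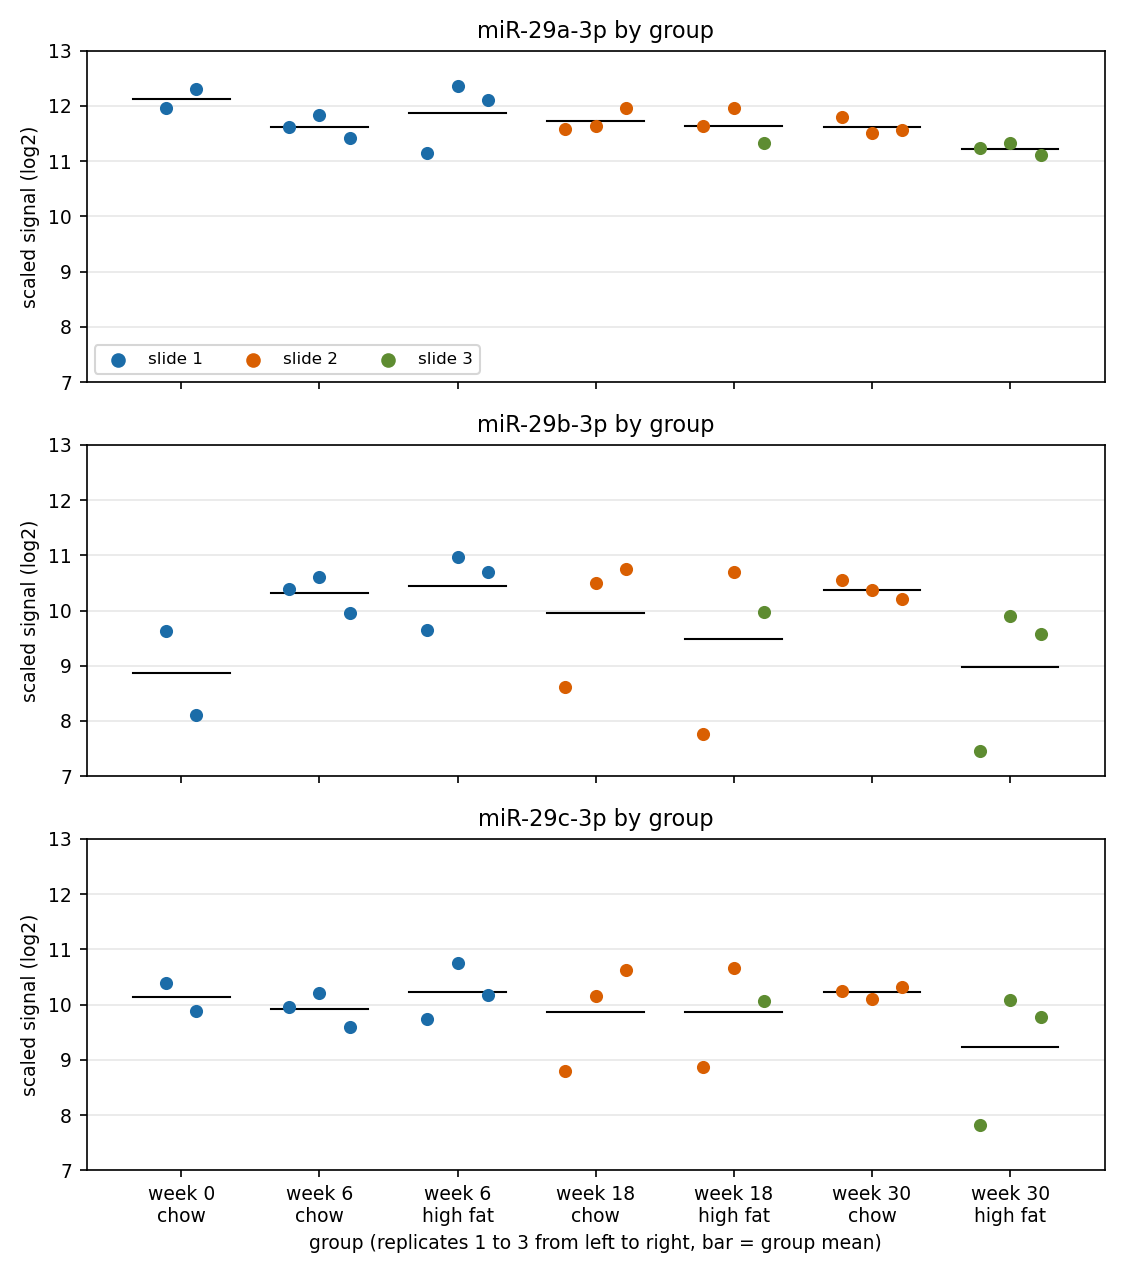
Scaled signal (log2) of miR-29a-3p, miR-29b-3p and miR-29c-3p on each of the 20 arrays, by group, with arrays 1 to 3 from left to right, the group mean as a bar and the slide as colour. miR-29a-3p stays between 11.12 and 12.37, while single arrays of miR-29b-3p and miR-29c-3p fall to 7.45 and 7.83.

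miR-29a-5p, the minor arm of the Mir29a hairpin, gave no signal well above background on any array. Its processed signal ran from 0.447 to 23.1 with a median of 1.93, and the highest value came from week 18 high fat array 3, the array with the noisy negative controls. It was therefore not tested, and no fold is given for it. Of the family's other minor arms, miR-29b-1-5p was detected on 3 of 20 arrays, miR-29b-2-5p on 0 and miR-29c-5p on 16. miR-29c-5p entered the test, with log2 levels from 4.06 to 5.64, and passed the threshold in 0 of 13 comparisons. Its diet difference was 0.15 at week 6, 0.10 at week 18 and -0.44 (SE 0.37) at week 30.

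The design first asks whether the diet altered the miRNAs of the lesion-bearing aorta at a given week. A miRNA was called at an adjusted p under 0.05 (limma, Benjamini-Hochberg over the 609 miRNAs tested). Of the 3 tested members, 0 were called at week 6, where 2.96% of all tested miRNAs were called, 0 at week 18 (0% of all) and 0 at week 30 (0% of all). The unadjusted p was under 0.05 for 0 of 3 members at each of these weeks. None of these weeks gave a member difference beyond the spread between replicates by this test.

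At week 6 all arrays lay on slide 1, and the diets overlapped for every tested member. The difference, high fat minus chow, was 0.25 (SE 0.35) for miR-29a-3p, 0.12 (SE 0.77) for miR-29b-3p and 0.30 (SE 0.60) for miR-29c-3p on the log2 scale, with adjusted p from limma of 0.902 to 0.998. The high fat arrays spread widely, with array 1 below every chow array for miR-29a-3p and arrays 2 and 3 above them. The 95% interval for miR-29a-3p ran from -0.49 to 0.99, and differences within it could not be told from 0 with these arrays. Single high fat arrays set these values. Without array 1 the differences were 0.61, 0.52 and 0.54 for miR-29a-3p, miR-29b-3p and miR-29c-3p, and without array 2 they were 0.0029, -0.14 and 0.032.

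At week 18 the difference was -0.09 (SE 0.35) for miR-29a-3p, -0.48 (SE 0.77) for miR-29b-3p and 0.0054 (SE 0.60) for miR-29c-3p, with adjusted p of 0.954 to 1 (limma). Each diet held one array on which miR-29b-3p and miR-29c-3p were low, and these are the arrays whose labelled slide positions would switch their diets. Without both of them the fit still called 0 members, and the miR-29c-3p difference was -0.03. Without high fat array 1 alone, the miR-29b-3p difference became 0.38. Within slide 2, which leaves out high fat array 3, the differences were 0.07, -0.72 and -0.09 in the same order of members.

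At week 30 the 3 tested members were lower in every high fat array than in every chow array. The chow arrays of miR-29b-3p lay between 10.20 and 10.55 and the high fat arrays between 7.45 and 9.89. The difference was -0.40 (SE 0.35, adjusted p = 0.429) for miR-29a-3p, -1.40 (SE 0.77, adjusted p = 0.285) for miR-29b-3p and -0.996 (SE 0.60, adjusted p = 0.311) for miR-29c-3p by limma. Such a separation, high fat below chow, was found for 25.5% of all tested miRNAs at this week. The median difference over all tested miRNAs was -0.13.

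The size of the week 30 difference rested in large part on high fat array 1. Without that array it was -0.64 for miR-29b-3p and -0.30 for miR-29c-3p, and -0.41 for miR-29a-3p. In that array miR-29b-3p and miR-29c-3p had processed signals of 57.3 and 74.3, and its 75th percentile signal was 253.5, against 908.3 and 1372 on the other high fat arrays. High fat arrays 2 and 3 were nearly identical, with an SD of their log2 differences over miRNAs of 0.18, against a median of 1.02 for pairs of arrays of one group. This likeness was not confined to the group. Week 18 high fat array 3, also on slide 3, differed from them by an SD of 0.195 (array 2) and 0.332 (array 3). Diet and slide coincided at week 30: all chow arrays were on slide 2 and all high fat arrays on slide 3. With slide as a block the difference was 0.08 (SE 0.63) for miR-29a-3p, -2.13 (SE 1.41) for miR-29b-3p and -1.29 (SE 1.11) for miR-29c-3p. These values rest on week 18 high fat, the only group on both slides, with array 3 on slide 3 and arrays 1 and 2 on slide 2. Array 3 had the noisy negative controls (SD 22.3), and array 1 stood apart on the first principal component (27.6). No within-slide value exists at this week.

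Markers of other cells differed between the week 30 groups, and their part in these differences was not tested. The summed scaled signal of the 2 endothelial markers was 1842 to 3900 on chow and 640.6 to 2279 on high fat, and that of the 4 fibroblast-associated miRNAs 1100 to 1632 and 572.6 to 1009. For the 5 leukocyte miRNAs the sums were 415.4 to 554.3 and 221.6 to 499.9, and for the 4 smooth muscle miRNAs 1824 to 2056 and 1307 to 2455. The striated muscle sums were 1601 to 2794 and 1652 to 4246, with 3 of its 6 markers undetected in both groups, and the red blood cell sums were 1928 to 4848 and 992.5 to 2048. The brown fat sums were 1915 to 3930 and 2244 to 7777, and the epithelium sums 112.1 to 1283 and 68.04 to 75.66. Fibroblast sums did not overlap between the diets, whereas those of smooth muscle did. Of the 4 fibroblast-associated miRNAs, however, 1 had a positive difference. The epithelium sums did not overlap either, but 0 of its 6 markers were detected on all high fat arrays and 1 on all chow arrays, so the high fat sums lie near the limit of detection.

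Averaged over weeks 6, 18 and 30, the diet difference was -0.08 (SE 0.20) for miR-29a-3p, -0.59 (SE 0.44) for miR-29b-3p and -0.23 (SE 0.35) for miR-29c-3p. The value of miR-29b-3p was -0.30 without week 18 high fat array 1 and -0.33 without week 30 high fat array 1. Of the members 0 of 3 were called by limma, against 0.164% of all tested miRNAs. A moderated F test asked whether the diet difference changed between weeks, and called 0 of 3 members against 0.985% of all. Its adjusted p was 0.713, 0.69 and 0.612 for miR-29a-3p, miR-29b-3p and miR-29c-3p. The unadjusted p was under 0.05 for 0 members in either test.

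**Figure D2:**
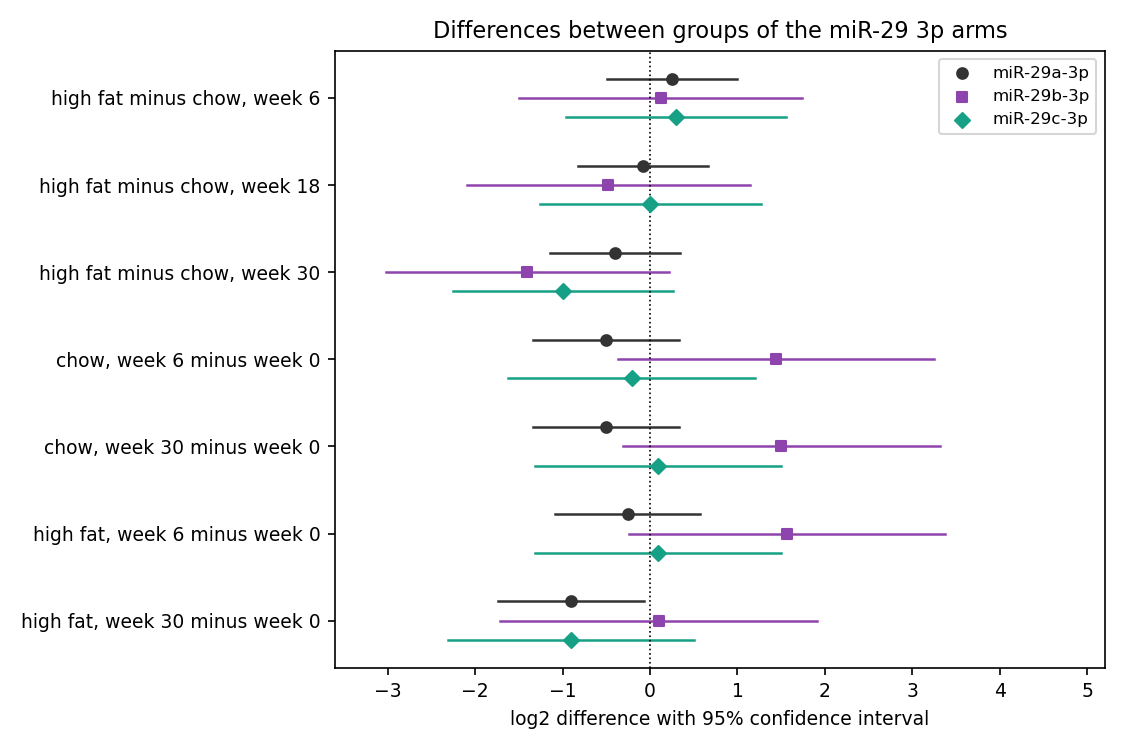
Log2 differences between groups for the 3 tested members, with 95% confidence intervals from limma. Intervals cross 0 throughout except that of miR-29a-3p from week 0 to week 30 on high fat, which runs from -1.73 to -0.07.

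The other comparisons follow the aorta over time within each diet, from the shared week 0 chow group. On chow from week 0 to week 6, both groups on slide 1, miR-29a-3p was lower on all later arrays, with a difference of -0.50 (SE 0.39, adjusted p = 0.489, limma). miR-29b-3p was higher on all later arrays, with a difference of 1.44 (SE 0.86, adjusted p = 0.321), and miR-29c-3p overlapped, with -0.21 (SE 0.67). Opposite directions for members with one seed, one of them from the same cluster, were thus seen without overlap, yet 0 of 3 members were called, against 20.4% of all tested miRNAs, and 0 had an unadjusted p under 0.05. Groups also failed to overlap for 12.3% of all miRNAs in the lower direction and for 50.6% in the higher direction, and the median difference over all tested miRNAs was 0.58. Without the 3 arrays apart on the first principal component, an alternative chosen after seeing the data that removes no array of these groups, the smaller pooled spread gave miR-29b-3p an adjusted p of 0.0378 at the same difference. Array weights, whose estimation stopped before convergence, also called miR-29b-3p, at 1.58 (adjusted p = 0.0023, limma). Scaling over all miRNAs called miR-29a-3p instead, at -1.96 (adjusted p = 0.0349), with miR-29b-3p at -0.0099, and moved the median of all miRNAs by -1.1. The count of all miRNAs called also moved between the alternative fits, from 0 to 268, against 124 in the main fit. The miR-29b-3p difference was 0.68 without week 0 array 2 and 2.20 without week 0 array 1.

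Cell markers also differed between week 0 and week 6 on chow, and their part in the member values was not tested. The summed epithelium signal was 129.4 to 149.9 at week 0, when 4 of its 6 markers were detected on no array, and 558.4 to 1868 at week 6, with 1 of 6 markers called higher and a median difference of 3.10. The leukocyte sums were 653.5 to 2270 and 2594 to 3817, and those of striated muscle 301.2 to 2280 and 1402 to 4159, with 1 of its 3 tested markers called higher. Epithelium and leukocyte sums were thus higher without overlap, and striated muscle sums overlapped. Of the 5 leukocyte markers, however, only 3 had a positive difference, with a median of 0.12. Sums were lower without overlap for smooth muscle (1763 to 2412, then 1099 to 1462), endothelium (3355 to 5341, then 1889 to 2978), fibroblast (1330 to 1388, then 844.9 to 1085) and brown fat (3353 to 6030, then 2229 to 2876). The red blood cell sums, 4613 to 7348 and 5785 to 8826, overlapped.

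On high fat from week 0 to week 6, also within slide 1, miR-29b-3p was again higher on all later arrays, with a difference of 1.56 (SE 0.86, adjusted p = 0.531, limma). It was 0.81 without week 0 array 2 and 2.32 without week 0 array 1. miR-29a-3p overlapped week 0 at -0.26 (SE 0.39) and miR-29c-3p at 0.09 (SE 0.67). Of the members 0 of 3 were called and 0% of all tested miRNAs, while 12.5% of all had later arrays entirely above week 0. Of the marker sums at week 6 on high fat, striated muscle (3086 to 6417) lay above week 0, and red blood cell (1812 to 4588) and brown fat (2223 to 2317) lay below it. Of the 3 red blood cell markers, however, 1 had a positive difference. Sums of the other 5 lists overlapped. The part of the markers in the member values was not tested. This comparison shares its week 0 arrays with that on chow, so the similar values are not independent.

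The steps between the later weeks gave no called member. On chow from week 6 to week 18, 0 of 3 members were called against 16.4% of all tested miRNAs, and from week 18 to week 30, 0 of 3 against 0% of all. On high fat, 0 of 3 were called from week 6 to week 18 (0% of all) and 0 of 3 from week 18 to week 30 (0% of all). In that last step miR-29a-3p was lower on all week 30 arrays, from at most 11.32 against at least 11.33, a separation in this direction found for 4.43% of all miRNAs. The unadjusted p was under 0.05 for 0 members in each of these 4 steps by limma.

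Over the whole course on chow, from week 0 to week 30, miR-29a-3p was lower on all week 30 arrays, at -0.50 (SE 0.39, adjusted p = 0.433). miR-29b-3p was higher on all of them, at 1.503 (SE 0.86, adjusted p = 0.301, limma), and miR-29c-3p overlapped at 0.09 (SE 0.67). Of the members 0 of 3 were called and 0% of all miRNAs, while 17.1% of all lay without overlap in the lower direction and 41.9% in the higher. The miR-29b-3p difference was 0.74 without week 0 array 2 and 2.26 without week 0 array 1. Array weights, which stopped before convergence, called miR-29b-3p at 1.51 (adjusted p = 0.0193, limma). The count of all miRNAs called ran from 0 to 249 over the alternative fits of this comparison. Among the marker lists the leukocyte sums (415.4 to 554.3 at week 30) alone lay apart from week 0, below it, and their part was not tested.

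Over the whole course on high fat, miR-29a-3p came closest to the threshold of any member. Its week 30 arrays, 11.25, 11.32 and 11.12, all lay below the week 0 arrays, 11.96 and 12.30. The difference was -0.90 (SE 0.39), a fold of 0.535, with an unadjusted p of 0.0351 and an adjusted p of 0.101 by limma. miR-29b-3p differed by 0.10 (SE 0.86) and miR-29c-3p by -0.90 (SE 0.67), both overlapping. Neither value was stable: leaving out 1 array at a time gave -0.66 to 0.86 for miR-29b-3p and -1.33 to -0.20 for miR-29c-3p, with -0.20 without week 30 high fat array 1. In this comparison 0 of 3 members were called against 21.5% of all tested miRNAs, and 18.2% of all lay without overlap in the lower direction. With only these groups in the fit the miR-29a-3p difference of -0.90 had an adjusted p of 0.019 by limma. With array weights, which stopped before convergence, it was -0.86 (adjusted p = 0.00157). Scaled over all miRNAs it was -1.89 (adjusted p = 0.0204), and this scaling moved the median of all tested miRNAs by -0.535. The count of all miRNAs called ran from 0 to 399 over the alternative fits, against 131 in the main fit. For miR-29b-3p array weights gave 0.90 (adjusted p = 0.0459) and scaling over all miRNAs -0.89 (adjusted p = 0.525, limma), and 8 of its 21 alternatives reversed the sign. Week 0 lies on slide 1 and week 30 on slides 2 and 3, so slide and time cannot be told apart in both of these comparisons.

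Markers of several cell types were lower in the same comparison, and their part in the miR-29a-3p value was not tested. Of the 5 leukocyte markers, 0 had a positive difference and 1 was called lower, with a median of -2.15, and their sums were 653.5 to 2270 at week 0 and 221.6 to 499.9 at week 30 on high fat. The endothelial sums were 3355 to 5341 and 640.6 to 2279 (median difference -1.48), and the fibroblast sums 1330 to 1388 and 572.6 to 1009 (median -0.80, 1 of 4 positive). Red blood cell sums, 4613 to 7348 and 992.5 to 2048, were lower without overlap as well, although 1 of the 3 markers had a positive difference (median -0.18). Epithelium sums, 129.4 to 149.9 and 68.04 to 75.66, were also lower without overlap, although 3 of the 6 epithelium markers had a positive difference. Sums of smooth muscle, striated muscle and brown fat overlapped.

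The clearest pattern within the family lay between its members on the same array, where scaling between arrays cancels. On 15 of 20 arrays miR-29b-3p minus miR-29a-3p lay between -1.55 and -1.13 on the log2 scale. On the other 5 it was -2.33 (week 0 array 1), -4.19 (week 0 array 2), -2.96 (week 18 chow array 1), -3.88 (week 18 high fat array 1) and -3.80 (week 30 high fat array 1). The probes differ, so the level of this difference has no meaning of its own, and only its change between arrays counts. The separation was seen after the values were known and was not tested. No array lay between -2.33 and -1.55.

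For miR-29c-3p minus miR-29a-3p, 16 arrays lay between -1.93 and -1.24. The other 4 were at -2.42 (week 0 array 2), -2.77 (week 18 chow array 1), -2.77 (week 18 high fat array 1) and -3.42 (week 30 high fat array 1). Week 0 array 1, low for miR-29b-3p, was ordinary here at -1.57. Arrays that stood apart were thus found in both diets and on all 3 slides, and at weeks 0, 18 and 30 but not at week 6.

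**Figure D3:**
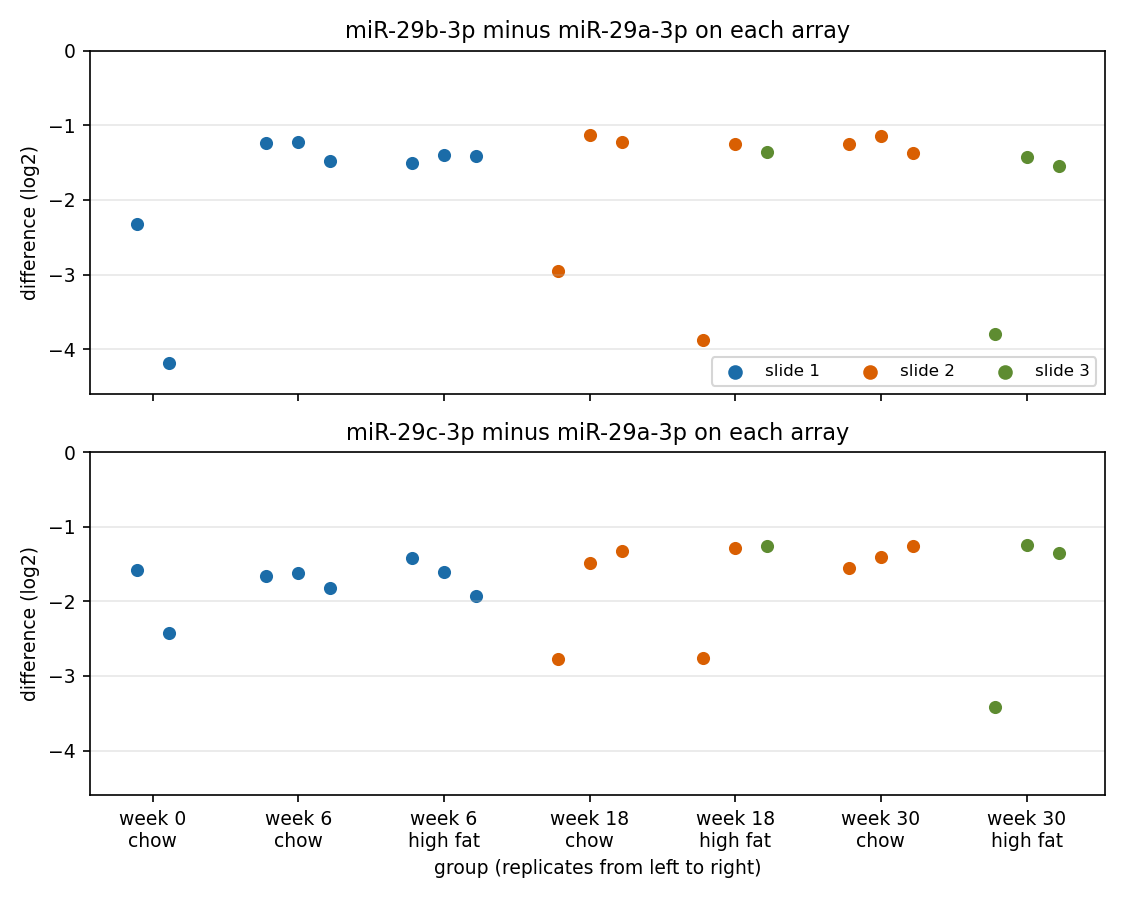
Log2 differences on the same array, miR-29b-3p minus miR-29a-3p above and miR-29c-3p minus miR-29a-3p below, by group and slide. Most arrays lie in a narrow band, and 5 arrays in the upper and 4 in the lower panel fall below -2.

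Other properties of the arrays were set beside this pattern. The 3 arrays apart on the first principal component, which was computed without the members, were among the 5, but the week 0 arrays were not apart there, at -0.98 and -3.17. For each array, the deviation of each miRNA from its median over the arrays was also correlated with the GC content of its mature sequence. This covered the 159 of 192 miRNAs with a RefSeq sequence. The r was 0.54, 0.497 and 0.632 on week 18 chow array 1, week 18 high fat array 1 and week 30 high fat array 1. It was as high, at 0.494, 0.569 and 0.635, on week 18 high fat array 3 and week 30 high fat arrays 2 and 3, where the member differences were in the ordinary band, and it was -0.34 and -0.423 at week 0. The members' own GC content was 40.9% for miR-29a-3p, 34.8% for miR-29b-3p and 36.4% for miR-29c-3p, against a median of 57.1% over those miRNAs. Detected miRNAs numbered 425, 412, 316, 645 and 355 on the 5 arrays, in the order given above, and 328 to 742 on the others. In the same order, the 75th percentile signal was 863.1, 791, 182.9, 1095 and 253.5, against 356.5 to 1653 on the others. The part of array quality or RNA composition in the pattern was not tested further.

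**Figure D4:**
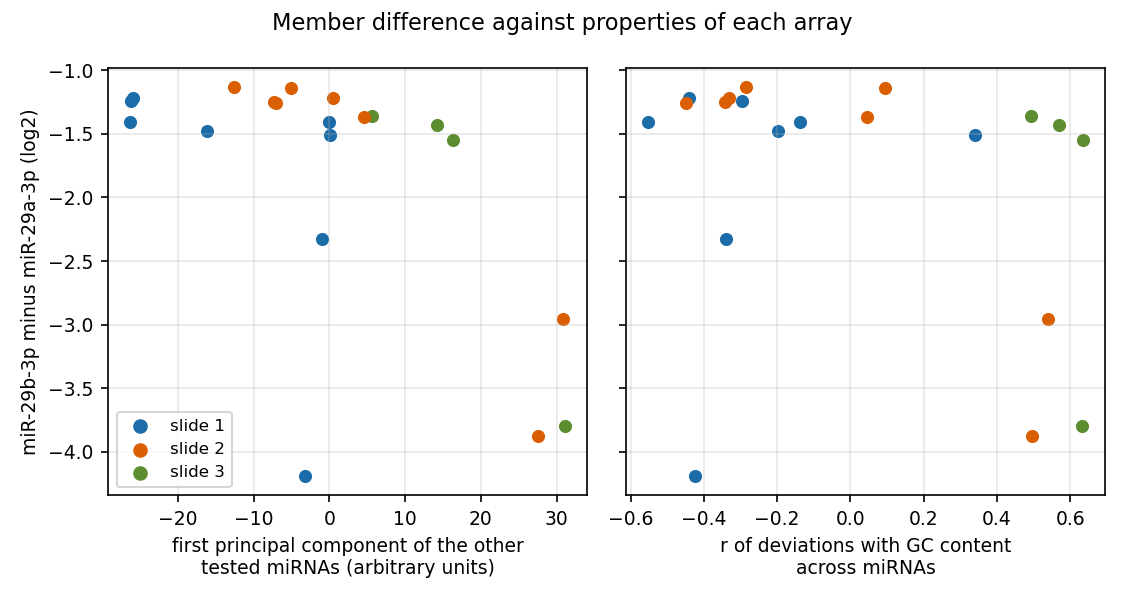
miR-29b-3p minus miR-29a-3p (log2) on each array against the array's position on the first principal component of the other tested miRNAs (left) and against the correlation of its deviations with GC content (right). The 3 arrays near 30 on the component are low, and so are the week 0 arrays near 0.

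Over all 20 arrays, the log2 levels of miR-29b-3p and miR-29c-3p correlated at r = 0.857, those of miR-29a-3p and miR-29c-3p at 0.498 and those of miR-29a-3p and miR-29b-3p at 0.268. With the first principal component of all tested miRNAs, here with the members included, the r was -0.455 for miR-29a-3p, -0.733 for miR-29b-3p and -0.698 for miR-29c-3p. The pair that shares the chromosome 6 cluster was the least alike in signal, and miR-29b-3p also comes from chromosome 1. All points share array, depth and scaling, and no p is given.

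The 5 miRNAs whose pattern over the 20 arrays was most like the mean of the 3p arms were miR-30a-5p (r = 0.927), miR-30e-5p (0.906), miR-30b-5p (0.878), miR-26b-5p (0.845) and miR-15a-5p (0.82). The median r over the 189 candidates detected on all arrays was -0.395. All 5 were negatively correlated with the first principal component of all tested miRNAs, members included, at -0.679, -0.853, -0.747, -0.777 and -0.89 in the same order. Each was closer to miR-29c-3p than to miR-29a-3p, as with miR-30a-5p at 0.95 against 0.557.

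The family was set beside 17 other miRNAs linked to matrix and fibrosis, all of which were tested. These include miR-21a-5p, which is raised in fibrosis, miR-24-3p, the miR-30 and miR-199 groups, and miR-133a-3p. Of them 0 were called in 12 of the 13 comparisons. Among these, 20.4% of all tested miRNAs were called on chow from week 0 to week 6 and 16.4% from week 6 to week 18, but 0% to 2.96% in the others. From week 0 to week 30 on high fat 1 of 17 was called lower and 0 higher. Of all 609 tested miRNAs, 31 were called lower there and 100 higher (21.5% in either direction). The 1 called was let-7d-5p, which fell by 1.54 on the log2 scale (SE 0.49, adjusted p = 0.0389, limma). That call was lost without either week 0 array, and without array 2 or 3 of week 30 high fat, each of which left 0 of all tested miRNAs called. The next were miR-26a-5p at -1.14 (adjusted p = 0.0616) and miR-21a-5p at -2.23 (adjusted p = 0.0716). Their median difference there was -0.72, against 0.35 over all tested miRNAs.

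At week 30 the 17 had a median diet difference of -0.49, with 4 positive, against -0.13 over all miRNAs. The smallest p belonged to miR-199b-5p, at -1.34 (SE 0.47, adjusted p = 0.167, limma), followed by miR-21a-5p at -1.74 (adjusted p = 0.258). At week 6 their median was 0.25 with 13 positive, and at week 18 it was 0.03 with 9 positive, against -0.11 and 0.26 over all.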

How the data were processed

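Total RNA was labelled with Cy3 and hybridised in 1 colour to Agilent mouse miRNA arrays, per the labels' protocols. The deposited values are spot intensities from Agilent Feature Extraction 11.5.1 (the submitters' processing notes), background-subtracted per the file headers and not scaled between arrays. All 20 columns of the value table equalled these intensities, with 0 left unmatched. Control spots, and outlier spots (1370 to 2199 per array), were dropped, and saturation affected 0. Spot values were averaged within each probe, then across a miRNA's probes. A miRNA was detected where at least 0.5 of the spots of 1 probe were well above background. After scaling, a floor of 3.09 (log2) was set. Those detected on every array of a group (609) were tested with limma 3.58.1 (R 4.3.3; lmFit and eBayes, 7 groups, 13 residual degrees of freedom, 2-sided), checked on simulated data. All members were named; of other miRNAs, the 5 most like the 3p arms and up to 3 per list with the smallest p. Members and lists were chosen with earlier results of these data known. The number of arrays limits precision.

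Samples were not treated as paired by replicate number in the main fit. Within weeks, deviations of same-numbered chow and high fat arrays correlated at -0.283 to 0.666. The highest values were 0.666 and 0.611, for arrays 1 and 2 of week 18, and 0.399 for array 2 of week 6. Alternatives covered scaling, background, floor, filters, slide, weights, near-identical arrays, single probes and each array left out.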

Additional observations from a re-analysis of the deposited data

How the results depend on the processing

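The count of called members stayed at 0 in 288 of the 295 alternative fits of the 13 comparisons. It was 1 for chow from week 0 to week 6 with scaling over all miRNAs (miR-29a-3p, -1.96, adjusted p = 0.0349), with array weights (miR-29b-3p, 1.58, adjusted p = 0.0023) and without the 3 arrays apart on the first principal component, an alternative chosen after seeing the data (miR-29b-3p, adjusted p = 0.0378). It was 1 for chow from week 0 to week 30 with array weights (miR-29b-3p, 1.51, adjusted p = 0.0193). For high fat from week 0 to week 30 it was 1 with scaling over all miRNAs, 1 with only the groups compared, and 2 with array weights (miR-29a-3p and miR-29b-3p, 0.90, adjusted p = 0.0459). Scaling over all miRNAs also moved the median of all tested miRNAs, by -1.1 for chow from week 0 to week 6 and by -0.535 for high fat from week 0 to week 30. The other causes were not tested, and the array weights stopped before convergence.

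Members not called changed sign under some settings. With no scaling, miR-29a-3p was 0.94 and miR-29b-3p 0.55 for the diet at week 18, miR-29a-3p 0.11 for the mean diet difference, miR-29c-3p -0.18 for high fat from week 0 to 6 and miR-29b-3p -0.18 for high fat from week 0 to 30. With scaling over all miRNAs, miR-29c-3p was -0.49 for the diet at week 18, -1.02 for chow from week 0 to 30 and -0.88 for high fat from week 0 to 6, and miR-29b-3p was -0.0099 and -0.89 for chow from week 0 to 6 and high fat from week 0 to 30. Quantile normalization gave miR-29c-3p -0.041 at week 18 and miR-29b-3p -0.077 for high fat from week 0 to 30, and normexp gave miR-29c-3p -0.057 at week 18. With slide as a fixed block, miR-29a-3p was 0.073 at week 18, as within slide 2 alone, 0.077 at week 30 and 0.13 for the mean, and miR-29c-3p was -0.093 at week 18, as within slide 2. Array weights gave miR-29b-3p -0.13 at week 6 and miR-29c-3p -0.47 at week 18. At week 18, miR-29c-3p was -0.027 both without the arrays of doubtful position and without the 3 apart, and -0.0033 by its shorter probe alone. With near-identical arrays averaged, miR-29b-3p was -0.28 for high fat from week 0 to 30.

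Leaving out each array in turn called 0 members in every comparison. Ranges that crossed 0 were -0.14 to 0.52 for miR-29b-3p at week 6. At week 18 they were -0.24 to 0.073, -1.15 to 0.38 and -0.52 to 0.50 for miR-29a-3p, miR-29b-3p and miR-29c-3p. For the mean diet difference they were -0.16 to 0.042 for miR-29a-3p and -0.41 to 0.0029 for miR-29c-3p. Against week 0, miR-29c-3p ranged from -0.46 to 0.044 (chow, week 6), -0.16 to 0.34 (chow, week 30) and -0.18 to 0.34 (high fat, week 6), miR-29a-3p from -0.50 to 0.11 (high fat, week 6) and miR-29b-3p from -0.66 to 0.86 (high fat, week 30).

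With the replicate number as a block, 0 members were called in all 13 comparisons, and miR-29c-3p was -0.011 for chow from week 0 to 30 and -0.012 for high fat from week 0 to 6, and miR-29b-3p -0.033 for high fat from week 0 to 30. The replicate block called 115 miRNAs in all for chow from week 6 to 18 and 158 for high fat from week 0 to 30, against 100 and 131. Slide as a fixed block gave no value where slides separate the weeks, and no single slide holds both diets of week 30. The background count over all tested miRNAs moved far more. Over the alternatives it ran from 0 to 29 (18 as reported), 0 to 19 (0) and 0 to 269 (0) for the diet at weeks 6, 18 and 30, 0 to 189 (1) for the mean and 0 to 109 (6) for its change over time. It ran from 0 to 268 (124), 1 to 360 (100), 0 to 1 (0) and 0 to 249 (0) on chow from week 0 to 6, 6 to 18, 18 to 30 and 0 to 30, and from 0 to 18 (0) and 0 to 399 (131) on high fat from week 18 to 30 and 0 to 30.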
